A study of Saccharomyces cerevisiae with 8 samples.

Results

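The 33 genes described here encode enzymes of amino acid synthesis in budding yeast. They were listed by function, with earlier results of these data known. They were kept where they lie on chromosomes II, V and XI to XVI in the R64 annotation, where the deposited peak positions could be matched to genes. The 33 are the genes so kept, of 3432 protein-coding genes on those 8 chromosomes and 6002 in the nuclear genome. DNA bound by RNA polymerase II was recovered with an antibody to Rpb1, its largest subunit, and sequenced (ChIP-seq). The strain was AM1003, titled WT, in which the HO endonuclease is driven by a GAL promoter. Cells were grown overnight in YEP with raffinose, a rich medium. Samples were taken before galactose (0 h, untreated) and after 6 h in 2% galactose, which induces HO and so a double-strand break. Each time has 2 replicates, called replicates 1 and 2. No label gives the rest of the genotype. Nor does any say whether the replicates came from separate cultures, and their spread may be technical only. Both times share the strain and the first medium, and the break, the galactose and the hours of growth come together at 6 h and cannot be told apart. The series asks about polymerase on template genes during break-induced replication, a repair process that copies a long template from 1 broken end.

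Yeast builds its amino acids in branches that start from glycolytic, pentose phosphate and TCA cycle intermediates. Sulphate is reduced for methionine, pyruvate and threonine feed the branched-chain amino acids, chorismate leads to the aromatic ones, and glutamate supplies nitrogen to nearly all of them. In starved cells the activator Gcn4 switches on most of these genes together, Met4 acts on the sulphur branch, and the first enzyme of a branch is commonly inhibited by its end product.

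Each of the 4 immunoprecipitated libraries came as a list of peak summits, with 1186 and 1194 summits at 0 h against 1288 and 1074 at 6 h in replicates 1 and 2. A summit is the single base at the top of a called peak. Its score is the −log10 of a p or q value from the peak caller, was not normalized between libraries, and is used here only to rank summits within a library. Occupancy itself is not in these lists, no fold change can be computed from them, and the read depth is unknown. A gene without a summit may still carry polymerase. In a bulk culture, polymerase on a gene in fewer cells and less of it in each cell cannot be told apart. A gene counts as having a summit if one lies in it or within 250 bp of either end, and its best summit is the one with the highest score. Distances are counted along the gene from the start codon and carry an uncertainty of up to 269 bp, since the build of the lists is not given in the sources used here. Distances between summits of 1 gene in different libraries do not share it.

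Rpb1 summits were found at 22 of the 33 members in at least 1 library, and at 7 members in all 4 libraries. Over all placed genes, 33.0% had a summit in at least 1 library and 9.88% in all 4, against 66.7% and 21.2% of the members. Of the 28 other listed genes of amino acid metabolism it was 25% and 7.14%. The members were listed with earlier results of these data known. Their higher shares are therefore not a trait of amino acid genes at large, and a part of that choice was not tested. Where each summit was given to its nearest gene, 4 members (ASN1, CPA1, GLN1 and ILV2) had one in all 4 libraries, and SAM1, SER1 and SER3 no longer did. No share over all placed genes is given for that count. Within 250 bp, each library had a summit at 14 to 17 members. There were 15 and 14 such members at 0 h against 17 and 15 at 6 h, or 14.5 ± 0.71 against 16 ± 1.4 (SD, n = 2 libraries). The counts of the times overlap at 15, and the difference of 1.5 is only slightly above the larger SD (exact permutation test over libraries, two-sided, p = 0.667, where 0.333 is the smallest p that 2 against 2 libraries allow). The members with summits had a median length of 1353 bp and those without 1371 bp. All members together had a median of 1365 bp, against 1218 bp for all genes, and a part of length in the higher shares was not tested. The 11 members without a summit in any library were MET2, MET14 and MET16 of the sulphur branch, ILV1, TRP3, ARG1, ARG7, HIS3, SHM2, GCV2 and PRO2.

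**Figure D1:**
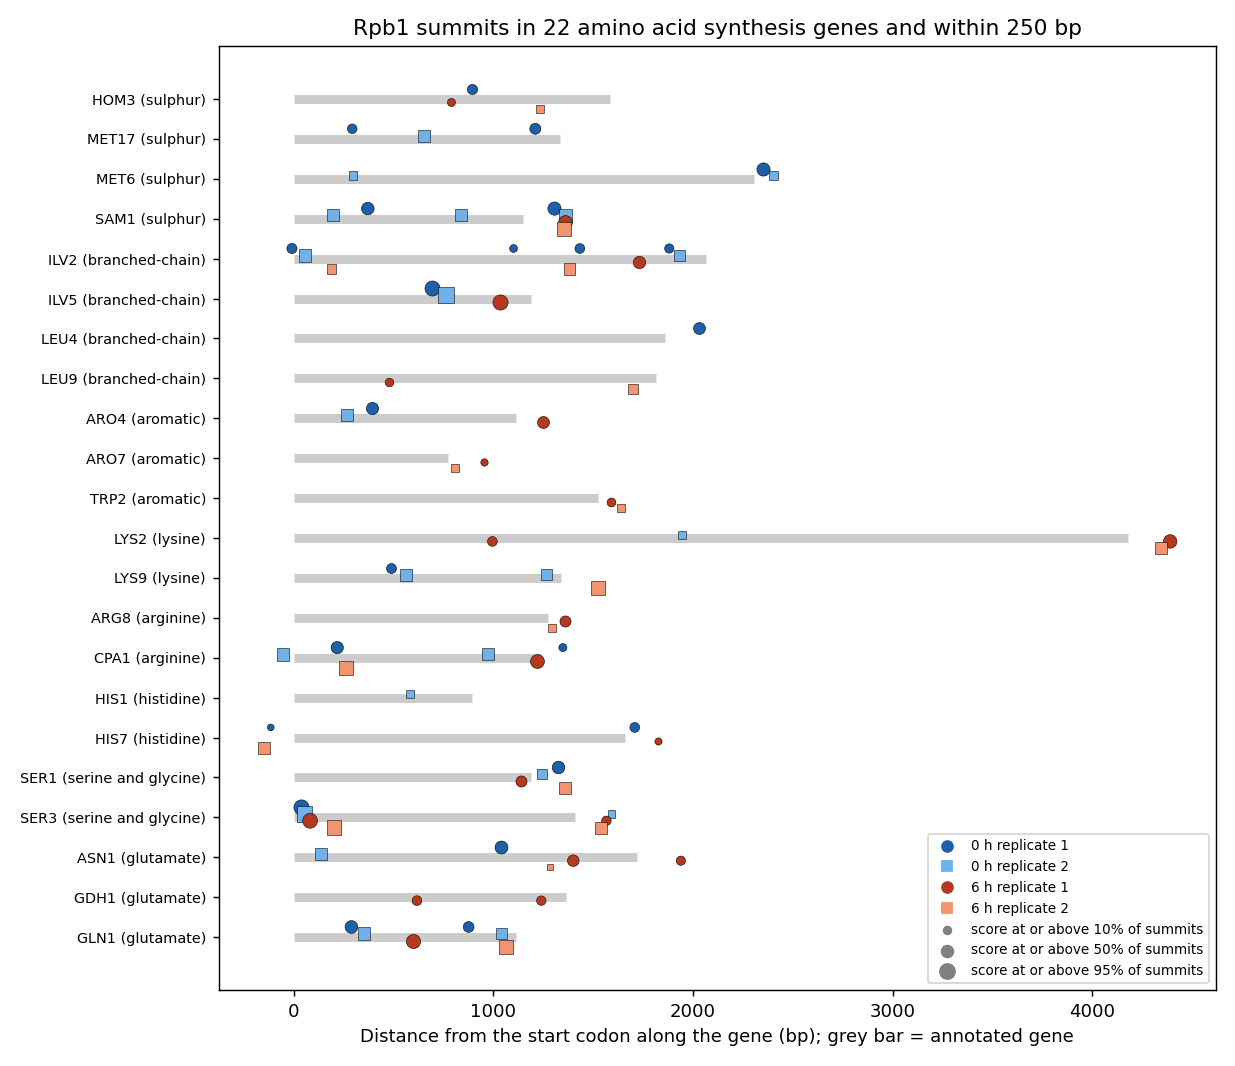
Every summit in the 22 members with one, by distance from the start codon (bp), coloured by library and sized by its rank within the library. Grey bars are the annotated genes, grouped by branch. At 0 h, 10 of 45 summits lie past a stop codon, and at 6 h 17 of 38. The share of best summits past the stop codon rose by a similar amount over all placed genes (14.1 percentage points, against 16.5 for members).

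Of the 83 summits in these windows, 52 lay inside a member, 27 past its stop codon and 4 upstream of its start. At 0 h, 32 of 45 summits lay inside and 10 past the stop codon (22.2%). At 6 h, 20 of 38 lay inside and 17 past the stop codon (44.7%). Counting the best summit of each gene, the mean share past the stop codon was 27.4% ± 8.4 at 0 h against 43.9% ± 3.9 at 6 h for members (SD, n = 2 libraries). Over all placed genes it was 35.5% ± 3.4 against 49.6% ± 2.6, a rise of 14.1 percentage points beside 16.5 for the members. The same windows take in neighbouring genes. Of the 0 h summits 9, and of the 6 h summits 15, also lay within 250 bp of another annotated gene, and these cannot be assigned to the member alone.

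In the sulphur branch, the largest with 7 members, MET17 and MET6 had an Rpb1 summit within 250 bp in each of the 0 h libraries but none at 6 h. In that window this held for no member of another branch. With gene bodies alone it held for MET17 and SAM1 and also for ARO4 and LYS9 of other branches, but not for MET6. A gene is called lost if both 0 h libraries and neither 6 h library had a summit, and gained in the opposite case. Over all placed genes 3.06% were lost and 4.31% gained. Of the members 2 were lost (6.06%) and 4 gained (12.1%). Read against the genes that could be called, 2 of 12 members with a summit in both 0 h libraries were lost, or 16.7% against 19.7% of all such genes. Of 16 members with no 0 h summit 4 were gained, or 25% against 5.65% of all such genes.

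These calls depended on the window and on single libraries. With gene bodies alone, 5 members had a summit in all 4 libraries, or 15.2% against 3.23% of all placed genes. LEU9 was then the 1 gained member (3.03%), against 2.19% of all placed genes and 2.58% of those with no 0 h summit. There were 4 lost members, ARO4, LYS9, MET17 and SAM1, or 12.1% against 3.12% of all placed genes. Of the 10 members with both 0 h summits these are 40%, against 36.6% of all such genes. The balance of 4 gained and 2 lost members within 250 bp thus turned to 1 gained and 4 lost inside the genes. The number of members with a summit inside the gene was 11 and 13 at 0 h, compared with 11 and 7 at 6 h, so the direction of that count turned as well. With 500 bp added, 4 of 33 members were gained (ARG1, ARG8, ARO7 and LEU9), against 4.98% of all placed genes. These are 4 of the 14 members with no 0 h summit in that window, against 6.97% of all such genes. There 1 of 33 members was lost (MET17), against 2.65% of all placed genes. Summits in all 4 libraries were found at 13 of 33 members, against 14.8% of all placed genes.

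Among the better-scoring 50% of summits LYS2 was gained and ASN1 lost, each 3.03% of the members, against 2.88% gained and 1.84% lost over all placed genes. With each summit given to its nearest gene 4 members were gained (12.1%) and 3 lost (9.09%), against 3.21% of all placed genes in each direction. Without 6 h replicate 1 there were 4 gained and 4 lost members, as ARO4 and ILV5 joined the lost ones, against 6.18% and 4.87% of all placed genes. Without 6 h replicate 2 there were 5 gained and 3 lost, against 7.40% and 3.85%. Without 0 h replicate 1 there were 6 gained and 3 lost, against 5.86% and 4.72%. Without 0 h replicate 2 there were 5 gained and 3 lost, against 5.77% and 4.81%.

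MET17 encodes O-acetylhomoserine sulphhydrylase, which builds sulphide into homocysteine. In 0 h replicate 1 it had summits 293 and 1210 bp from the start codon, with scores of 4.78 and 6.29. In 0 h replicate 2 a single summit lay at 652 bp with a score of 6.31. At 6 h no summit was listed within 1000 bp of it, so MET17 was lost with gene bodies alone, with 250 bp and with 500 bp added. Its best 0 h summits ranked 695 of 1186 and 677 of 1194 in their lists, below the middle.

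MET6, the methionine synthase gene, and TRP2, which encodes anthranilate synthase of the tryptophan branch, are convergent neighbours on chromosome V with 391 bp between their stop codons. At 0 h the summits in that gap lay at 339816 and 339764, with scores of 13.7 and 3.91, at 48 and 100 bp past the MET6 stop codon. At 6 h they lay at 339540 and 339588, with scores of 3.86 and 3.70, at 68 and 116 bp past the TRP2 stop codon. The 0 h pair and the 6 h pair did not overlap, and their means differed by 226 bp against gaps of 52 and 48 bp between replicates. The loss of MET6 and the gain of TRP2 therefore rest on summits of the same gap, and with 500 bp added both genes had a summit in all 4 libraries. Inside MET6, 0 h replicate 2 alone had a further summit, at 297 bp with a score of 3.86.

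SAM1, encoding S-adenosylmethionine synthetase, kept a summit past its stop codon in every library while those inside the gene appeared at 0 h alone. The downstream summit lay at 1306 and 1360 bp at 0 h and at 1361 and 1354 bp at 6 h, where scores were 14.0, 14.5, 21.2 and 22.1. These 4 positions overlap between times and lie 55 to 110 bp past the stop codon of the convergent gene VTA1 as well. Inside SAM1, 0 h replicate 1 had a summit at 371 bp (score 9.96) and 0 h replicate 2 had them at 197 and 840 bp (scores 8.14 and 7.67). By the gene body alone SAM1 was thus lost, as were 3.12% of all placed genes.

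HOM3 encodes aspartate kinase, the entry to threonine and methionine. Its summits were of low rank, with scores of 5.36 in 0 h replicate 1, 3.29 in 6 h replicate 1 and 3.34 in 6 h replicate 2, and 0 h replicate 2 had none. They lay 893, 789 and 1231 bp from the start codon, so the times overlap.

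**Figure D2:**
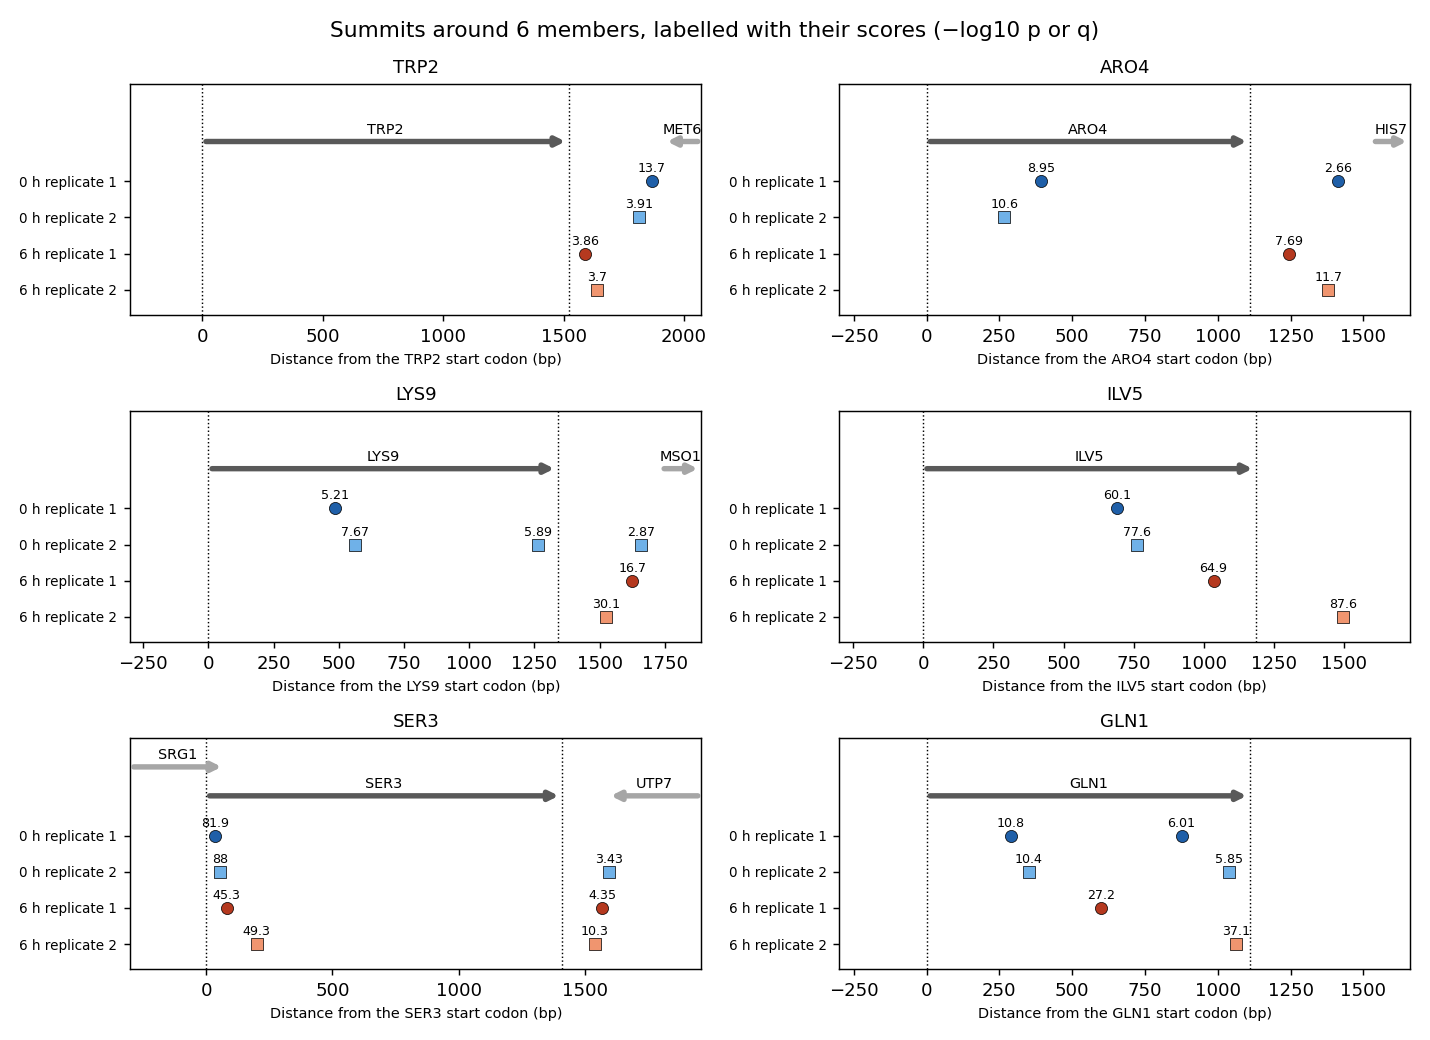
Summits of the 4 libraries around TRP2, ARO4, LYS9, ILV5, SER3 and GLN1, by distance from the member's start codon (bp), each labelled with its score. Arrows are annotated genes and their direction, dotted lines the member's start and stop codons. Between TRP2 and MET6 the 0 h summits lie on the MET6 side and the 6 h summits on the TRP2 side.

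In the branched-chain branch Rpb1 summits stood further along ILV2 and ILV5 at 6 h than at 0 h. ILV5 encodes acetohydroxyacid reductoisomerase, and its summits were among the strongest of each list. Their scores were 60.1 and 77.6 at 0 h against 64.9 and 87.6 at 6 h, at ranks 52, 31, 36 and 45. They lay at 692 and 763 bp at 0 h and at 1035 and 1497 bp at 6 h, the last being 310 bp past the stop codon. Both 6 h summits were downstream of both 0 h summits. With the 250 bp window the summit of 6 h replicate 2 fell outside, so ILV5 counted there as having summits in 3 libraries.

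ILV2, the catalytic subunit of acetolactate synthase, had its best summit 9 bp upstream of the start codon and 57 bp into the gene at 0 h. At 6 h it lay at 1727 and 1381 bp. Scores were 5.22 and 10.1 at 0 h against 9.10 and 9.17 at 6 h. The positions of the best summits did not overlap, but weaker summits lay at the other end of the gene. At 0 h they stood at 1101, 1433 and 1881 bp in replicate 1 (scores 3.45 to 4.84) and at 1933 bp in replicate 2 (5.89), and at 6 h at 190 bp in replicate 2 (5.38). The displacement of 1530 bp is thus a change in which end of the gene held the better-scoring summit.

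LEU4 and LEU9 are paralogs for α-isopropylmalate synthase, the first step of leucine synthesis, and gave weak summits. LEU9 had no 0 h summit in its window and was called gained from 6 h scores of 3.64 and 4.98. The 6 h summits lay at 475 and 1697 bp, more than 1000 bp apart, so the replicates do not mark the same place. LEU4 had a summit in 0 h replicate 1 alone, 169 bp past the stop codon with a score of 8.05, which is also within 250 bp of the start of INP52. ILV1, encoding threonine deaminase, had none.

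In the aromatic branch ARO7 and TRP2 were called gained, and ARO4 had its 6 h summits past the stop codon. ARO4 encodes the tyrosine-inhibited enzyme of the first shikimate pathway step. At 0 h it had summits at 394 and 267 bp with scores of 8.95 and 10.6. At 6 h the nearest summits were at 1246 bp with a score of 7.69 and 1380 bp with 11.7, or 134 and 268 bp past the stop codon. The times did not overlap. A weak summit (score 2.66) stood there in 0 h replicate 1 too, 302 bp past the stop codon. ARO4 is followed in tandem by HIS7 of histidine synthesis with 416 bp between them, and the same 6 h summits lay 283 and 149 bp upstream of the HIS7 start codon. ARO7, the chorismate mutase gene, had no 0 h summit within 1000 bp. Its 6 h summits had scores of 2.89 and 3.43, near the lowest of their lists, and lay 185 and 38 bp past its stop codon, in the gap of 186 bp before the convergent gene YMC1. TRP3, the partner of TRP2 in anthranilate synthase, had no summit in its window.

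In the lysine branch both members had 6 h summits past the stop codon, but that of LYS9 in 6 h replicate 1 lay outside the 250 bp window. LYS9 encodes saccharopine dehydrogenase. Its 0 h summits lay at 486 bp in replicate 1, with a score of 5.21, and at 561 and 1264 bp in replicate 2, with scores of 7.67 and 5.89. Its 6 h summits lay at 1625 and 1526 bp, 285 and 186 bp past the stop codon, with scores of 16.7 and 30.1. Both also lay upstream of the next gene in tandem, MSO1, within 250 bp of its start codon, and cannot be assigned to LYS9 alone. The best summits of the times did not overlap, although 0 h replicate 2 also had a summit 320 bp past the stop codon (score 2.87), likewise upstream of MSO1. LYS2 encodes α-aminoadipate reductase and, at 4179 bp, is the longest member. At 6 h it had summits 212 and 168 bp past its stop codon with scores of 17.0 and 16.7, at ranks 345 of 1288 and 373 of 1074. These also lay inside the convergent gene RAD16, 84 and 40 bp before its stop codon. At 0 h, replicate 1 had a summit of score 2.64 at 271 bp past the LYS2 stop codon, outside the window, and replicate 2 had one at 1946 bp inside the gene with a score of 3.45. With the better-scoring 50% of summits LYS2 was the 1 gained member.

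In the arginine branch CPA1 held summits in all 4 libraries and ARG8 was called gained. CPA1 encodes the small subunit of carbamoyl phosphate synthetase. Its best summits lay 218 bp into the gene and 54 bp upstream of it at 0 h, with scores of 9.01 and 9.38. At 6 h they lay at 1219 and 260 bp, with scores of 22.4 and 27.0. The 6 h values are both higher than the 0 h values, but by 42 bp at the nearest, and the 6 h replicates were 959 bp apart, more than the 657.5 bp between the means. Second summits at 0 h stood at 1348 and 973 bp (scores 3.65 and 7.72), so the 3′ part of CPA1 held summits at both times. The upstream 0 h summit is 3 bp past YOR302W, the short upstream reading frame known for arginine-dependent control of CPA1. ARG8, encoding acetylornithine aminotransferase, had 6 h summits 86 and 23 bp past its stop codon with scores of 5.93 and 3.97. At 0 h the nearest summits, with scores of 12.2 and 11.7, lay inside the convergent gene CDC33, which encodes the cap-binding factor eIF4E, at 302 and 284 bp from its start codon. The 6 h summits stood 267 and 330 bp past the CDC33 stop codon, and CDC33 had none inside it at 6 h. ARG1, the argininosuccinate synthetase gene, had none within 250 bp. With 500 bp added it was gained from summits 471 and 443 bp upstream of its start codon, with scores of 12.2 and 13.3, which lay 292 and 320 bp past the stop codon of GPD2. ARG7 had none.

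Histidine genes gave few summits. HIS7 encodes imidazole glycerol phosphate synthase. Its best summit lay 50 bp past the stop codon in 0 h replicate 1 (score 4.84) and 167 bp past it in 6 h replicate 1 (2.75). In 6 h replicate 2 it lay 149 bp upstream of the start (11.7). A weaker summit stood 115 bp upstream in 0 h replicate 1 (2.66), and 6 h replicate 1 had one 283 bp upstream (7.69), outside the window. Summits thus lay upstream of HIS7 at both times, and past its stop codon in replicate 1 of both times. The 6 h replicate 1 summit past the stop codon also lay within 250 bp of the start of ENP1. HIS1, for the first step of the branch, had a single summit of score 3.57 in 0 h replicate 2, and HIS3 had none.

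In serine and glycine synthesis SER3 and SER1 had Rpb1 summits within 250 bp in all 4 libraries, the best of which also lay near a noncoding RNA gene. SER3 encodes 3-phosphoglycerate dehydrogenase and had the best-ranked summit of any member at 0 h, with scores of 81.9 and 88.0 at ranks 24 and 23. At 6 h the scores were 45.3 and 49.3, at ranks 105 and 135. The summits lay at 37 and 54 bp at 0 h and at 82 and 201 bp at 6 h. The times did not overlap, and the means differed by 96.0 bp, more than the gap of 17 bp between replicates at 0 h and less than that of 119 bp at 6 h. At 0 h both summits fell within SRG1, the noncoding transcript that crosses the SER3 promoter and is known to repress SER3 in serine-rich medium. It overlaps the annotated gene by 77 bp, and the 6 h summits were 6 and 125 bp past its end. Summits in this place cannot be divided between SRG1 and SER3. Weaker summits near the UTP7 end, 128 to 183 bp past the SER3 stop codon, were present in 0 h replicate 2 and both 6 h libraries.

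SER1, encoding phosphoserine aminotransferase, had summits at 1325 and 1243 bp at 0 h and at 1138 and 1360 bp at 6 h. Scores were 10.1, 6.04, 5.93 and 8.11, and positions overlapped between the times. SNR36, a small nucleolar RNA gene that converges on SER1 across 140 bp, lay within 250 bp of all 4 summits. The summit of 6 h replicate 2 lay inside SNR36, and these summits cannot be assigned to SER1 alone. SHM2 and GCV2, for serine hydroxymethyltransferase and a glycine decarboxylase subunit, had none.

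Among the genes placed with glutamate, GLN1 and ASN1 had summits in all 4 libraries. GLN1 encodes glutamine synthetase. Its best summit lay at 289 and 352 bp at 0 h, with scores of 10.8 and 10.4, and at 598 and 1064 bp at 6 h, with scores of 27.2 and 37.1. The times did not overlap, and the means differed by 510.5 bp, against gaps of 63 and 466 bp between replicates. Second summits at 0 h stood at 876 and 1040 bp with scores of 6.01 and 5.85, so the 3′ part of GLN1 held summits at both times. ASN1, encoding asparagine synthetase, had its best summit at 1039 and 135 bp at 0 h and at 1400 and 1282 bp at 6 h. The times did not overlap, although the 0 h replicates were 904 bp apart, more than the 754 bp between the means. Its scores were 12.3 and 7.74 at 0 h against 6.79 and 3.11 at 6 h. A further summit in 6 h replicate 1 lay 221 bp past the stop codon (score 3.99), which is 131 bp past the stop codon of the convergent YPR145C-A. GDH1, the NADP-dependent glutamate dehydrogenase gene, had 2 weak summits in 6 h replicate 1 (scores 4.36 and 4.20). At 0 h the nearest summits lay 297 and 737 bp past its stop codon, with scores of 14.9 and 18.7. These were outside the window and inside the convergent gene ALD4. PRO2 of proline synthesis had none.

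**Figure D3:**
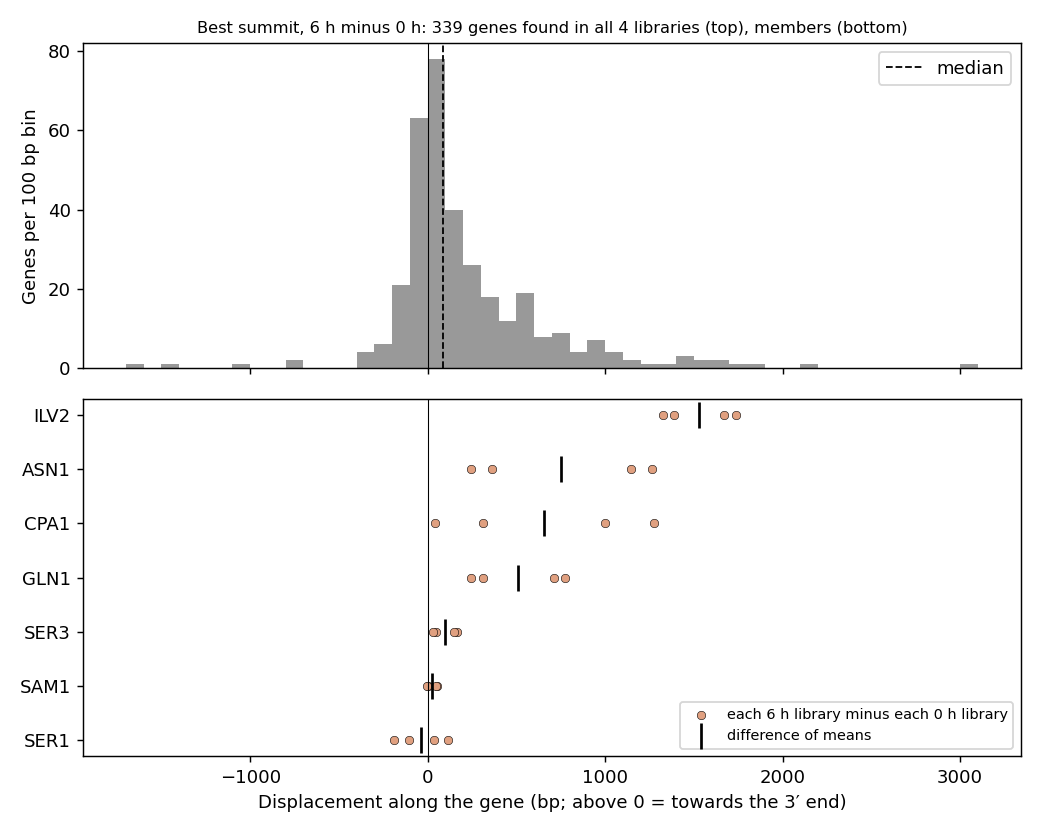
Displacement of the best summit along the gene (bp, 6 h minus 0 h), as a histogram of the 339 placed genes with a summit in all 4 libraries (top) and for the 7 members among them (bottom). Points are single library pairs and bars the differences of means, which run from -35 bp at SER1 to 1530 bp at ILV2.

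The 6 h best summit was downstream of the 0 h one by a median of 510.5 bp in the 7 members with a summit in all 4 libraries, against 84.5 bp over all 339 such genes. The displacement was above 0 in 6 of the 7, against 70.2% of those genes. Both 6 h summits were downstream of both 0 h summits in 5 members (ILV2, ASN1, CPA1, GLN1 and SER3) and upstream in 0, while SAM1 and SER1 overlapped. Over all such genes 40.7% were downstream by this rule and 10.3% upstream. With only 7 members the median is loosely set. It was 117 bp over 9 members without 0 h replicate 2, and 307.5 bp over 9 without 6 h replicate 2. Taking the mean position of all summits in the window gave 208 bp, with 3 members separated downstream. No value over all placed genes is given for these alternatives, so they do not show whether the members still differ from all genes. With 500 bp added, 13 members could be followed and 9 were separated downstream, against 39.8% of all genes so followed, and 1 upstream, against 13.8%. ARO4 (982.5 bp), LYS9 (1052 bp), ILV5 (538.5 bp) and MET6 (226 bp) joined the first 5. TRP2 was separated upstream by the same 226 bp, because it shares its summits with MET6.

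As a fraction of the gene's length, counted from its start codon, the median position of the members' best summits was 0.583 and 0.442 at 0 h against 0.959 and 0.957 at 6 h. The libraries of the times did not overlap, and the difference of 0.445 was larger than the spread (0.513 ± 0.10 against 0.958 ± 0.0013, SD, n = 2 libraries). The exact permutation test gave p = 0.333, the smallest that this design allows. Over all placed genes the medians were 0.900 and 0.819 at 0 h against 0.990 and 1.01 at 6 h, a difference of 0.140. Each median covers the genes with a summit in that library, so the genes differ between libraries. In both 6 h libraries the best summit was beyond the stop codon at 5 of the 14 members with a summit in both (ARG8, ARO7, LYS2, SAM1 and TRP2), or 35.7% against 38.0% of all placed genes. At 0 h it did so at 3 of 12 members (MET6, SAM1 and SER1), or 25% against 22.7%. Both shares are close to those of all genes.

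**Figure D4:**
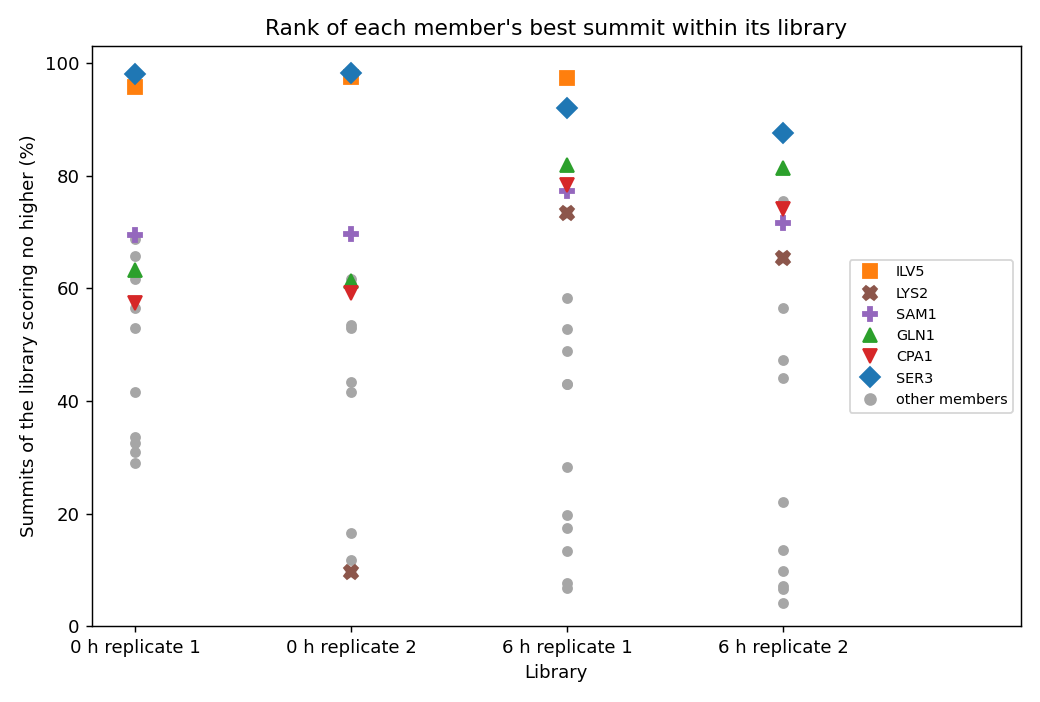
Rank of each member's best summit within its library, as the percentage of the library's summits that score no higher, for the 4 libraries. SER3 stands between 87.5% and 98.2%, and ILV5 between 95.7% and 97.5% where it has a summit in the window. ILV5 has none in its window in 6 h replicate 2, nor LYS2 in 0 h replicate 1.

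By rank within a library the members ranged from the top of the lists to the bottom. The median member's best summit scored as high as or higher than 57.3% and 56.2% of summits at 0 h and 48.8% and 47.3% at 6 h. Over all placed genes with a summit these medians were 54.0% and 55.2% at 0 h against 54.8% and 52.4% at 6 h. SER3 stood at 98.1% and 98.2% at 0 h against 91.9% and 87.5% at 6 h. GLN1 stood at 63.2% and 61.3% at 0 h against 81.8% and 81.3% at 6 h. CPA1 stood at 57.3% and 59.1% at 0 h against 78.3% and 74.1% at 6 h. SAM1 stood at 69.5% and 69.7% at 0 h against 77.3% and 71.5% at 6 h. ASN1 stood at 65.8% and 53.4% at 0 h against 48.8% and 4.19% at 6 h. Of the 7 members with a summit in all 4 libraries, both 6 h ranks were above both 0 h ranks in GLN1, CPA1 and SAM1. They were below them in SER3 and ASN1, while ILV2 and SER1 overlapped. The share of all placed genes separated by rank is not given here, so no excess among the members can be read from this. The lists differ in length, so these are ranks side by side and not a change in polymerase.

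Of 90 further genes, for amino acid synthesis or for regulators of amino acid metabolism, 28 lie on the 8 chromosomes. Of these, 21 had no summit in any library. A summit was found at 3 of 18 enzyme genes and 4 of 10 regulator genes. Together these 7 are 25% of the 28, against 33.0% of all placed genes and 66.7% of the members. Both sets were chosen with earlier results of these data known, and a part of that choice in their difference was not tested. Of the 28, 2 had summits in all 4 libraries (7.14%, against 9.88% of all placed genes). There was 1 gained and 1 lost gene (3.57% each, against 4.31% and 3.06%). These shares are all close to those of all genes. The transcription factor gene PUT3 was the 1 gained gene (scores 5.12 and 5.36 at 2759 and 2781 bp) and AAT2, encoding aspartate aminotransferase, the 1 lost gene (best scores 5.60 and 4.25). GCN4 and GLY1 had summits in all 4 libraries. GCN4 encodes the general activator of these genes and is mainly controlled in translation. Its summits lay at 110 and 95 bp at 0 h and at 544 and 875 bp at 6 h, with scores of 73.0 and 75.3 at 0 h against 35.5 and 61.4 at 6 h. The positions of the times did not overlap, and the last is 30 bp past the stop codon. GLY1, encoding threonine aldolase, had scores of 44.6 and 32.7 at 0 h against 52.7 and 62.9 at 6 h, at 1210, 259, 815 and 1171 bp, so its times overlap.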

How the data were processed

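The members, branches and lists were chosen with earlier results of these data known. The series has 8 samples, of which the 4 inputs were not analysed here. The submitters' processing notes name MACS2 2.2.7.1, SAMtools 1.10, Bowtie2 2.2.4 and fastp 0.20.1, with no role or parameter. Genome build, peak threshold and use of the inputs were not given in the sources used here. Each deposited list belongs to 1 library and scores a summit, as MACS2 writes it, by −log10 of its p or q.

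Gene names, ends and strands (from systematic names) came from the RefSeq table of R64. Placement was checked with 236 landmark genes for ribosomal proteins, translation factors, glycolysis and small nucleolar RNAs, slid in 100 bp steps over 12000 bp. On the 8 chromosomes used, a summit lay within 250 bp of 87.0% to 100% of landmarks, and the best shift was 0 bp on 7 and -200 bp on XI. On 7 others at most 28% had one, and chromosome VI had 3 landmarks. Summits of landmarks on opposite strands were off centre by up to 269 bp on average, on XI.

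Tests were exact permutations over libraries (SciPy 1.17.1, Python 3.11.15). All calls were made over all 3432 placed genes, and the code was tested on simulated summit lists. Every member with a summit in its window is described and the others are named. Of the other pathway genes, those gained, lost or found in all 4 libraries are named. Alternatives were the window, the better-scoring 50% of summits, assignment to the nearest gene, the shift, the choice of summit, each library left out and a replicate block. Neighbouring genes are named where a member's summit lies within 250 bp of them. CDC33, GPD2, ALD4 and the small nucleolar RNA genes upstream of members were named after values were seen.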

Additional observations from a re-analysis of the deposited data

How the results depend on the processing

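Of 54 alternative values of the summaries, 38 stayed within 1.5 times (counts), 1 SD between replicates (displacement) or the same direction (relative position). Of the median displacements and relative positions 0 changed sign. Counts cannot change sign, but their order between the times turned with gene bodies alone and with the better-scoring 50% of summits. With gene bodies alone, the mean number of members with a summit was 12 at 0 h and 9 at 6 h, which turns the direction of that count. There 1 was gained (LEU9, 3.03% against 2.19% of all placed genes). The 4 lost were ARO4, LYS9, MET17 and SAM1 (12.1% against 3.12% of all placed genes). Of the members with both 0 h summits these 4 are 40%, close to the 36.6% of all such genes. With 500 bp added, 1 of 33 members was lost (MET17), against 2.65% of all placed genes. With the better-scoring 50% of summits the mean numbers were 9.5 at 0 h and 7.5 at 6 h, with 1 gained (LYS2; 3.03% against 2.88%), 1 lost (ASN1; 3.03% against 1.84%) and a median displacement of 303 bp over 4 members. Giving each summit to its nearest gene gave a displacement of 632 bp over 4 members, 4 gained and 3 lost (12.1% and 9.09%, each against 3.21%), and SER3 was then gained because its 0 h summits went to SRG1. The mean position of all summits gave 208 bp. Without each library in turn, the displacement ranged from 117 to 636 bp, gained members from 4 to 6 and lost members from 3 to 4, where fewer libraries have to meet the rule. For the rest the cause was not tested. No displacement over all placed genes is given for the alternatives of this paragraph. The shift of -200 bp on chromosome XI changed no count and could change none, since TRP3 and MET14, its members, had no summit near enough. Its values are among the 38 that stayed. So is the relative position of the replicate block, which equals the main value by construction.

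Replicate numbers are shared between the times, but libraries of 1 number deviated together with a correlation of only 0.033 (3432 genes, 2 pairs). The numbers were not taken to pair them. With the replicate block, comparing libraries of 1 number gave a mean of 6 gained members and 4.5 lost ones (18.2% and 13.6%, against 8.65% and 6.42% of all placed genes), since 1 library a time enters each pair. Depth is unknown, so summits near a list's lowest score, as at ARO7, TRP2 and LEU9, may fall on either side of the authors' threshold.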

Other observations

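Upstream of 3 members, beyond the 250 bp window, every library had summits at a small nucleolar RNA gene. At LYS9 they lay 632 to 667 bp upstream of the start codon, within 100 bp of SNR49, with scores of 56.6 and 31.7 at 0 h against 36.1 and 41.3 at 6 h. At TRP3 they lay 566 to 656 bp upstream, within 92 bp of SNR64, with scores of 40.0 and 32.7 at 0 h against 11.4 and 12 at 6 h. At ASN1 they lay 580 to 807 bp upstream, within 137 bp of SNR45, with scores of 29.2 and 18.0 at 0 h against 17.0 and 24.2 at 6 h. In these 3 places positions overlapped between the times, unlike the best summits of LYS9 and ASN1.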
